A study of Mus musculus with 2 samples.

Results

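The genes described here are 10 mouse genes of the interleukin 1 family: the cytokine genes Il1a, Il1b, Il1rn and Il18, and the receptor genes Il1r1, Il1r2, Il1rap, Il1rl1, Il18r1 and Il18rap. They were chosen by name, and their probes were the non-control probes whose transcript accession belongs to one of these genes in a RefSeq gene table. This gave 18 of the 41164 probes that had a value on both arrays, for 10 of 18426 named genes. RNA came from splenic CD4 T cells, labelled Menin WT for 1 array and Menin KO for the other, of female C57BL/6J mice. Menin, encoded by Men1, is a chromatin-associated protein that works with MLL histone methyltransferases. Naive cells of both genotypes were stimulated in culture for 2 days with plate-bound antibody against TCR-β (3 µg/ml), antibody to CD28 (1 µg/ml) and IL-2 (2.5 ng/ml). They then stayed in the same dose of IL-2 for 3 further days. The age of the mice, how Menin was deleted and in which cells, and whether animals were pooled are not given in the sources used here.

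Interleukin 1 alpha and beta and interleukin 18 are inflammatory cytokines made mainly by innate, barrier and stromal cells, and interleukin 33 is their relative that signals tissue damage. Each acts through a pair of related receptor chains that recruit the adaptor MyD88 and IRAK kinases and so switch on NF-kappaB and MAP kinases. In CD4 T cells the IL-1 receptor is tied to Th17 cells, the IL-18 receptor to Th1 cells and the IL-33 receptor ST2 to Th2 cells and some regulatory T cells. The family is held in check by a receptor antagonist, a decoy receptor and soluble receptor forms.

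The decoy receptor gene Il1r2 was 37.5-fold higher in the KO array by its brighter probe and 36.1-fold by the other. Il1a, the antagonist gene Il1rn and the signalling receptor gene Il1r1 were well above background in the KO array and not in the WT array. The second probe of Il1a and that of Il1rn were not well above background on either array. Il18, Il18r1 and Il1rl1 were 1.51-fold to 1.89-fold higher in KO, within the 2-fold limit used here, and Il1rap and Il18rap were nearly equal. No spot of Il1b passed background on the WT or the KO array.

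With 1 array a group there is no replicate, no test and no p-value, and every value below describes these 2 arrays. Each signal is the scanner software's processed signal, on a linear scale, printed with the error the software assigns to it. That error covers 1 spot on 1 array and says nothing of the spread between mice, cultures or hybridisations. Differences are log2, KO minus WT, after each array was set to the 75th percentile of its own signals (644 for WT and 650 for KO). For probes printed several times, the spot-to-spot scatter of such a difference had an SD of 0.34 for signals under 100 and 0.083 for brighter ones. A probe that the scanner software marks as well above background on 1 array only gives a bound, written as at least N-fold. The lowest signal so marked was 14.0 for WT and 10.4 for KO. In a sample of many cells, more cells of a type and more RNA per cell cannot be told apart.

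The targeted gene was lower in the library labelled KO: Men1 read 1081 in WT against 459 in KO (2.38-fold), by 1 probe whose place relative to the deleted part is not known. Bach2, the repressor gene named in the study's title, read 4643 in WT against 604 in KO (7.76-fold lower). All 10 markers listed for CD4 T cells, most of which all T cells share, were well above background on both arrays, 9 of them less than 2-fold apart and Cd5 lower in KO. Cd4 itself read 443 in WT against 279 in KO (1.60-fold lower), and Cd8a, which marks CD8 T cells, read 312 against 3213 (10.2-fold higher, with all 3 probes in this direction). Markers of other cells were also found, among them the B cell marker Ms4a1 (131 in WT, 266 in KO), while Pax5 and Blk were dark. Their number well above background, by 1 chosen probe a gene and first in WT and then in KO, is given here out of those with a probe. It was 5 and 6 of 11 for macrophages and monocytes, 2 and 3 of 9 for neutrophils, and 5 and 7 of 9 for mast cells and basophils. It was 5 and 5 of 7 for dendritic cells, 3 and 4 of 6 for B cells, 7 and 8 of 8 for natural killer cells and 1 and 1 of 1 for CD8 T cells. For gamma delta T cells it was 0 and 0 of 2, and for group 2 innate lymphoid cells 4 and 6 of 7. For stromal, endothelial and epithelial cells it was 4 and 5 of 8. Of all 18426 named genes, 12694 were well above background in WT and 13561 in KO. The values of the cell type markers are given with the family genes that those cells are known to express. Their counts at least 2-fold apart stand beside 10.8% higher and 5.14% lower in KO over all named genes with a value.

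Of the 18 probes, 8 were well above background on both arrays, 3 in KO only, 0 in WT only and 7 on neither. Counted as genes by 1 chosen probe each, 6 of the 9 measured family genes were well above background on both arrays and 3 in KO only. By the same count 7.9% of all 13783 measured genes were well above background in KO only and 1.61% in WT only. Of the 10 genes, 4 were at least 2-fold higher in the KO array, none was at least 2-fold lower, 5 lay between and 1 was not measured. Across all 13507 named genes with a value, 10.8% were at least 2-fold higher in KO and 5.14% at least 2-fold lower. After another background correction (normexp with the backgrounds as given, where the WT array has 6 spots with an aberrant local background) the split of all such genes turned, from 1457 higher and 694 lower to 601 higher and 1682 lower; higher genes were 67.7% of those called, 26.3% after that correction and 67.3% with the 6 backgrounds replaced. Of the 4 higher family genes, 3 passed background only on the KO array, Il1a at 451, Il1r1 at 49.1 and Il1rn at 38.8. Their place in the count thus follows in part from the filter. Of the 6 genes measured on both arrays, 1 was at least 2-fold higher and 0 at least 2-fold lower, where 8.85% and 4.51% of all such genes were. The median log2 difference of the 9 family genes with a value was 0.92, beside -0.01 over all genes, and it too includes the 3 genes that entered through KO.

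**Figure D1:**
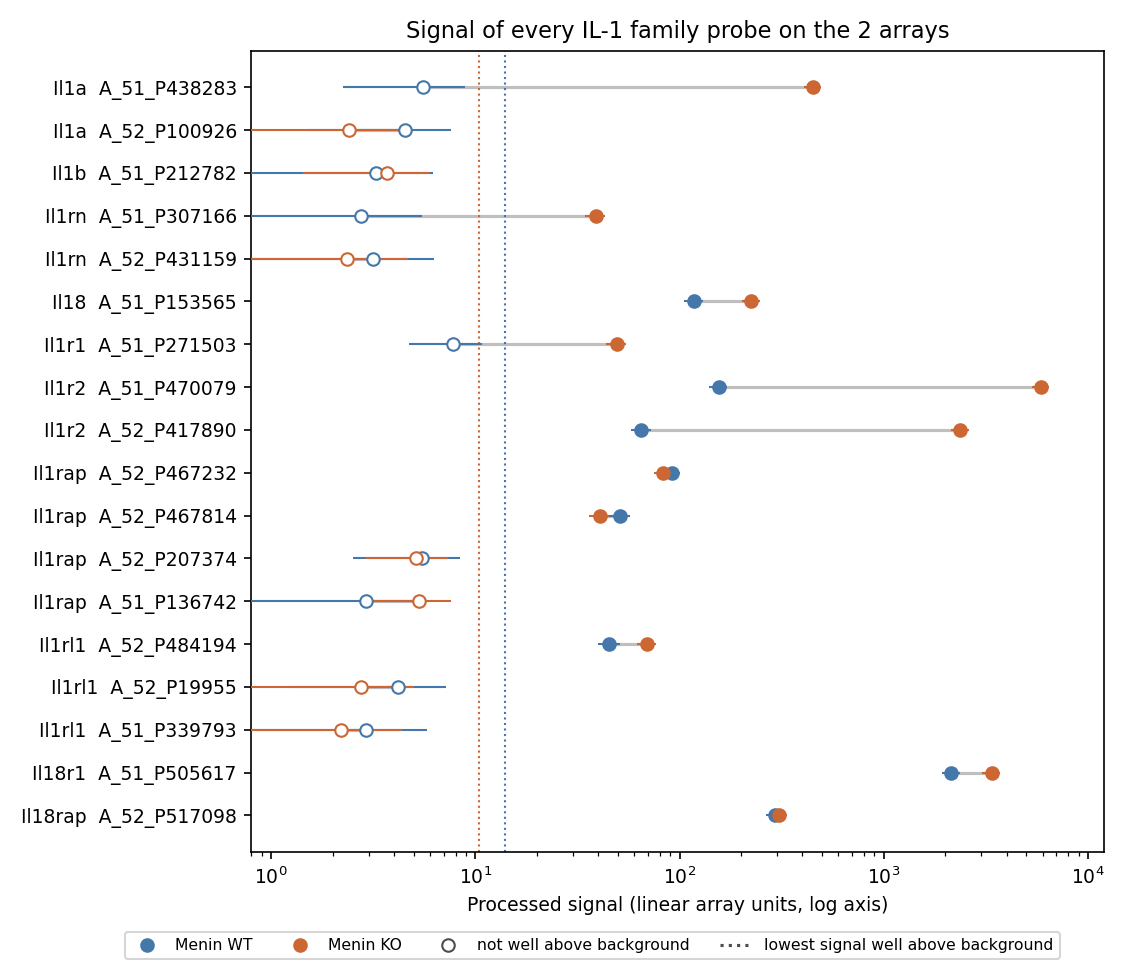
Processed signal of each of the 18 IL-1 family probes (rows, gene and probe name) on the Menin WT and Menin KO arrays, on a log axis. Filled points were well above background, open points were not, error bars are the scanner software's error of 1 spot (bars that reach below the axis are cut at its edge), and dotted lines mark the lowest signal well above background (14.0 in WT, 10.4 in KO). Both Il1r2 probes lie far apart on the arrays, while 7 probes are open on both.

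Il1r2 encodes the type II IL-1 receptor, which binds IL-1 but lacks the intracellular signalling domain and so acts as a decoy. Its probe A_51_P470079 read 156 ± 15.8 in WT against 5896 ± 590 in KO. The probe A_52_P417890, assigned to the same transcript, had 65.0 ± 7.44 in WT and 2369 ± 237 in KO. All 4 values were well above background, and the KO array was the high one for both probes. The log2 difference was 5.23 ± 0.21 for the first probe and 5.18 ± 0.22 for the second, where the error combines the scanner errors of both spots, so the probes differed by less than that error. Il1r2 ranked 5th from the top among the 12472 genes measured on both arrays, and 99.96% of them had a smaller difference. Neutrophils and monocytes are also known to express Il1r2. Of the neutrophil markers 6 of 9, among them S100a8, S100a9 and Elane, were dark on both arrays, Ltf and Mpo were lower in KO (log2 differences -0.92 and -0.48), and Cxcr2 passed background in KO only (12.9, beside 7.31 in WT). The summed signal of these 3 was 142 in WT and 92.8 in KO. Of the macrophage and monocyte markers, given in full with Il1a and Il1rn, Cd14 was 7.25-fold and Fcgr3 at least 9.50-fold higher in KO, with sums over the measured ones of 369 and 689. The part of these cells in the Il1r2 value was not tested.

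Il1r1 encodes the type I IL-1 receptor, the chain that signals. Its only probe, A_51_P271503, had a signal of 7.73 ± 2.99 in WT, not well above background, and 49.1 ± 5.38 in KO, which was. Il1r1 was thus at least 3.48-fold higher in KO (log2 bound 1.80), and the KO signal was dim. Among the 813 genes with a usable bound in this direction, its bound ranked 181st from the top.

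Il1rap encodes the accessory chain shared by the IL-1, IL-33 and IL-36 receptors. Of its 4 probes, A_52_P467232 had 91.5 ± 9.59 in WT and 83.4 ± 8.62 in KO, a log2 difference of -0.15 ± 0.21. The probe A_52_P467814, which is assigned to another transcript, had 51.3 ± 5.97 and 40.6 ± 4.68, a log2 difference of -0.35 ± 0.24. The first difference was smaller than its error, and the second lay close to the spot scatter at this dim level. The other 2 probes were not well above background on either array, with signals between 2.91 and 5.45. Of these, A_51_P136742 (2.91 in WT, 5.30 in KO) is assigned to the same transcript as A_52_P467814, so the probes of that transcript disagreed.

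Il1rl1 encodes ST2, the IL-33 receptor, as a membrane form and a soluble form. The probe A_52_P484194, assigned to NM_001025602, the transcript of the membrane form, had 45.3 ± 5.52 in WT and 69.2 ± 7.31 in KO, a log2 difference of 0.60 ± 0.23 (1.51-fold). Both probes assigned to NM_010743, the transcript of the soluble form, were not well above background on either array, with signals between 2.20 and 4.19. The signal of the membrane form was dim, and its difference turned to -0.73 after normexp with the backgrounds as given and was 0.11 with the aberrant backgrounds replaced. ST2 is abundant on mast cells, basophils and group 2 innate lymphoid cells. Of 7 mast cell and basophil markers with a value, 4 passed 2-fold toward KO: Cpa3 (12.9-fold), Mcpt8 (at least 11.4-fold), Cma1 (6.82-fold) and Fcer1a (2.33-fold). Hdc, the brightest of them in WT, was lower in KO (168 in WT, 96.4 in KO, log2 difference -0.81), Gata2 had only a bound of 1.28-fold and Prss34 was 1.18-fold higher. Ms4a2 and Tpsb2 were not well above background on either array, and the summed signal of the measured markers was 314 in WT and 1040 in KO. For innate lymphoid cells, Klrg1 (9.10-fold) and Calca (7.06-fold, although its other probe was dark) were higher, Ccr9 was 2.39-fold lower and Il17rb was not well above background, with sums of 177 and 670. Rora had log2 differences of 0.91 and -0.20 by its 2 probes, and Nmur1 and Arg1 had bounds of 1.63-fold and 1.01-fold. Their part in the Il1rl1 value was not tested.

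Il18r1 encodes the ligand-binding chain of the IL-18 receptor. Its probe A_51_P505617 had 2141 ± 214 in WT and 3381 ± 338 in KO, a log2 difference of 0.65 ± 0.20 (1.56-fold). The KO array was the higher one, and the difference was several times the spot scatter for bright signals, yet below the 2-fold limit. Among genes measured on both arrays 86.3% had a smaller difference. Il18rap, the accessory chain that completes the IL-18 receptor, had 293 ± 29.5 in WT and 307 ± 30.8 in KO by its only probe, A_52_P517098. Its log2 difference of 0.05 ± 0.20 was smaller than its error, so the arrays could not be told apart for this chain. Natural killer cells carry much IL-18 receptor, and 4 of their 8 markers were at least 2-fold higher in KO (Fcer1g, 7.54-fold, Klrb1c, 5.39-fold, Tyrobp, 4.82-fold, and Klrk1, 2.69-fold). Eomes was lower (log2 difference -1.20), and Klra8 and Klre1 had log2 differences of 0.40 and 0.69. Ncr1, which defines these cells, had a bound of 0.62 on the log2 scale. The markers' summed signal was 2287 in WT and 7838 in KO, most of the KO sum from Fcer1g (669 in WT, 5087 in KO). CD8 T cells also carry this receptor, and Cd8a was 10.2-fold higher in KO. Their part in the Il18r1 value was not tested.

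In the genome 5 of the 6 receptor genes lie side by side. In the order of the RefSeq gene table they stand on chromosome 1 as Il1r2, Il1r1, Il1rl2, Il1rl1, Il18r1 and Il18rap. The log2 difference along this order was 5.23 for Il1r2, at least 1.80 for Il1r1, 0.60 for Il1rl1, 0.65 for Il18r1 and 0.05 for Il18rap. Il1rl2, the IL-36 receptor chain, was marked above background in KO only (11.2, beside 5.39 in WT), which lay under the WT limit of 14.0 and gave no usable bound. Outside the cluster, Map4k4, the kinase gene before Il1r2, had a log2 difference of 0.10 and Mfsd9 one of -0.41. Slc9a4, Slc9a2 and Rfx8 were not well above background on either array. The largest difference of the cluster thus stood directly beside a gene that was nearly equal on the arrays.

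**Figure D2:**
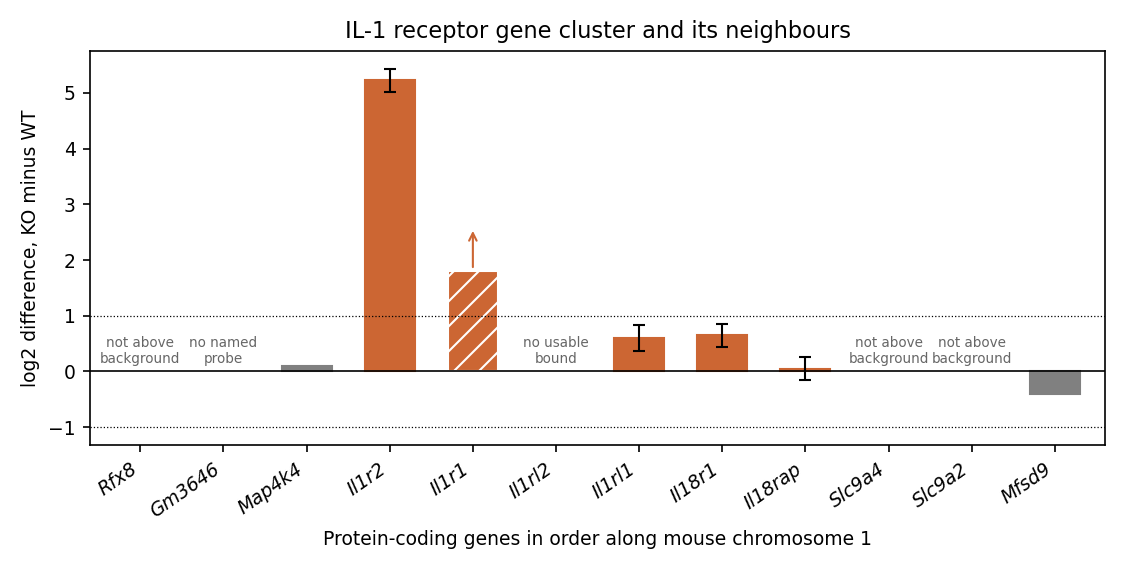
Log2 difference, KO minus WT, of the receptor genes and the 3 protein-coding genes on either side, in their order along mouse chromosome 1. Orange bars are the family genes described here with the combined scanner error, the hatched bar with an arrow is a lower bound, grey bars are other genes, and dotted lines mark the 2-fold limit; Il1r2 (5.23) and Il1r1 (at least 1.80) pass it and Map4k4 beside Il1r2 is at 0.10.

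Il1a encodes IL-1 alpha, an agonist of the type I receptor that is active without cleavage. Its probe A_51_P438283 had 5.57 ± 3.32 in WT, not well above background, and 451 ± 45.1 in KO. On that probe Il1a was at least 31.9-fold higher in KO (log2 bound 4.99), the 7th largest bound among 813 genes. The second probe, A_52_P100926, is assigned to the same transcript and stayed dark on both arrays, with 4.54 ± 3.03 in WT and 2.40 ± 2.27 in KO. The probes of Il1a therefore disagreed, and the difference rests on 1 spot per array.

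Il1rn encodes the IL-1 receptor antagonist, which occupies the type I receptor without signalling. Its probe A_51_P307166 had 2.74 ± 2.73 in WT, not well above background, and 38.8 ± 4.40 in KO, so Il1rn was at least 2.75-fold higher in KO (log2 bound 1.46). The other probe of the same transcript, A_52_P431159, was dark on both arrays, at 3.14 ± 3.13 and 2.34 ± 2.33. Here too the probes disagreed and the KO signal was dim. When a gene counted only if every one of its probes was at least 2-fold higher, an alternative chosen after the data were seen, 2 of the 10 genes remained, Il1r1 with its single probe and Il1r2 with both, where 8.37% of all measured genes passed.

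Il1b encodes IL-1 beta, the main secreted agonist of the type I receptor, which macrophages and monocytes make. Its probe is printed 10 times on each array, and 8 spots on each were free of outlier flags. The signal ran from 2.73 to 4.53 with a median of 3.04 in WT, and from 2.22 to 5.30 with a median of 3.66 in KO. None of these spots was well above background, the ranges overlapped, and no fold was computed. The array limits this statement to signals below about 14.0 in WT and 10.4 in KO.

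Il1a and Il1rn are also genes of myeloid cells, and 3 of the 7 markers of macrophages and monocytes with a value passed 2-fold toward KO: Adgre1 (at least 5.08-fold, although its other probe was dark), Cd14 (7.25-fold) and Fcgr3 (at least 9.50-fold). Csf1r (log2 difference -0.39), Mpeg1 (-0.64) and C1qb (0.00) were not higher, Lyz2 was well above background in WT only, and Itgam, Fcgr1, C1qa and Cd163 were dark on both arrays. The summed signal of the measured markers was 369 in WT and 689 in KO. Among dendritic cell markers Itgax (30.8-fold) and Batf3 (2.30-fold), which activated T cells can also express, were higher. Flt3 (log2 difference 0.40), Zbtb46 (0.27) and Xcr1 (-0.01) were less than 2-fold apart by their chosen probes, the other probes of Zbtb46 (79.4 in WT, 6.70 in KO) and Xcr1 (27.2 and 2.47) passed background in WT only, and Siglech and Cd209a were dark. The summed signal of the measured markers was 20430 in WT and 47884 in KO, nearly all of it from Batf3 (20260 in WT, 47096 in KO). Of the epithelial and stromal markers, listed because such cells also make IL-1 alpha and the antagonist, Krt18 (11.1-fold) and Epcam (5.03-fold) were higher in KO. Pecam1 was 1.57-fold higher, Krt8 and Col1a1 had bounds of 1.25-fold and 1.08-fold, Col3a1 passed background in WT only (14.5, beside 6.75 in KO), and Cdh5 and Pdgfra were dark. The summed signal of the measured ones was 476 in WT and 2425 in KO. The part of these cells in the values of Il1a, Il1rn, Il1r1 and Il18, which such cells also express, was not tested.

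Il18 encodes IL-18, which is made as a precursor and matured by caspase-1. Its probe is also printed 10 times on each array and gives the only measured value of the family that rests on repeated spots of 1 probe. The 9 usable WT spots ran from 110 to 127 with a median of 116, and the 10 KO spots ran from 215 to 241 with a median of 221. Every KO spot was brighter than every WT spot. The mean signal was 118 ± 5.13 in WT (SD over 9 spots) and 225 ± 9.21 in KO (SD over 10 spots). The log2 difference was 0.92 (1.89-fold), just under the 2-fold limit, with a combined scanner error of 0.21 for 1 spot per array. The spots share 1 RNA sample per genotype and are no replicates of the genotype. The next nearest family genes under the limit were Il18r1 at 1.56-fold and Il1rl1 at 1.51-fold, and the nearest above it was Il1rn at a bound of 2.75-fold. At a limit of 1.5-fold 7 of the 10 genes counted as higher in KO, where 17.3% of all named genes with a value did. These 7 include the 3 genes that passed background in KO only. Of the 6 genes measured on both arrays 4 counted as higher at this limit, where 14.9% of all such genes did.

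**Figure D3:**
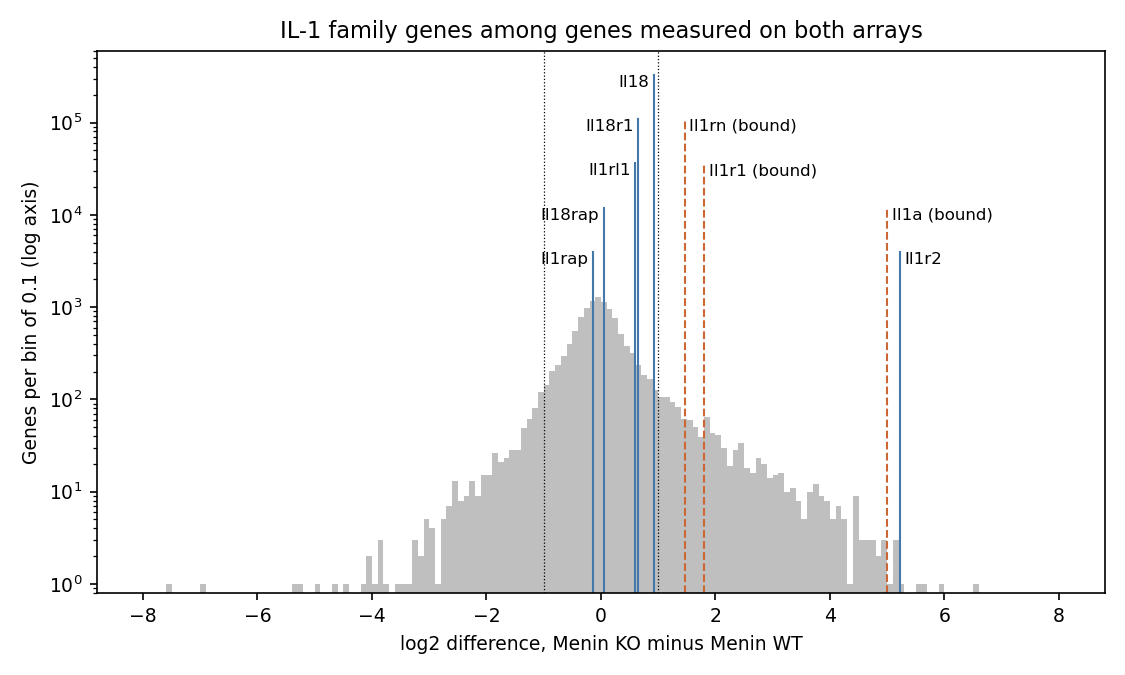
Distribution of the log2 difference, KO minus WT, over the 12472 genes measured on both arrays (grey bars, log axis), with the 9 measured IL-1 family genes marked. Blue lines are values and dashed orange lines are lower bounds; Il1r2 at 5.23 lies at the far right edge of the distribution, and Il1rap and Il18rap lie near its centre.

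Of the 4 genes at least 2-fold higher in KO, the 3 whose upstream sequence held a match to a searched motif are shown here. Neither of the 2 windows of Il1r1 held one, and they are not shown. They are the 250 bases before a RefSeq gene start of GRCm38.p6, printed 5′ to 3′ on the strand of the gene. All 10 genes matched the table, with 16 start sites in all, and which start these cells use is not known from an array. For Il1rn the first of its 3 start sites is shown. Capitals mark the matches described after the sequences.
Il1r2, chr1:40085843-40086092, plus strand: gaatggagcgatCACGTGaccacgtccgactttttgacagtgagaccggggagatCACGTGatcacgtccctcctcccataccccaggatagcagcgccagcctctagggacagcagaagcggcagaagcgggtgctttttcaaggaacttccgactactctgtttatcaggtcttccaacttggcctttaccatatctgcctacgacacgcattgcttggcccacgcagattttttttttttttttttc
Il1a, chr2:129309973-129310222, minus strand: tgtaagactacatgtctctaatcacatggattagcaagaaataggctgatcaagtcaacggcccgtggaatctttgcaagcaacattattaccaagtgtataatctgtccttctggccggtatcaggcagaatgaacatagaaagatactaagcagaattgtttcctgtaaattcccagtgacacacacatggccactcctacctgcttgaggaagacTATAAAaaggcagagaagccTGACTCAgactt
Il1rn, chr2:24336610-24336859, plus strand: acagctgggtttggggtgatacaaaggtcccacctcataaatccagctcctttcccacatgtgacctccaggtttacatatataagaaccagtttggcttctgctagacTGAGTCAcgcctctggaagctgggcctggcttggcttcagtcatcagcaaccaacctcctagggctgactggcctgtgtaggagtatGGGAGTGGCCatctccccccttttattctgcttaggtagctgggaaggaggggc

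AP-1 and Bach factors bind the letters TGANTCA. On either strand these were found in 2 of the 16 windows, 1 of Il1a, ending 6 bases before the start, and 1 of Il1rn, beginning 141 bases before it. They occur in 6.75% of all 32851 windows of the same length. A longer form with TGC directly before the AP-1 letters was in none of the 16 windows and in 0.353% of all, and the cyclic AMP element TGACGTCA was in none and in 1.55%. The NF-kappaB letters, GGGA and CC with 4 bases of any kind between them, were found in Il1rn, beginning 54 bases before the start, and in Il1rap, and occur in 17.6% of all windows. The TATA box letters TATAAA were found in Il1a, beginning 32 bases before the start, in Il1b, beginning 31 bases before it, and on the other strand in Il18, and occur in 12.4%. The GATA letters AGATAA were found at both start sites of Il1rl1 and occur in 9.99%. In the Il1r2 window only the E-box letters CACGTG matched, at 238 and 195 bases before the start. They occur in 6.02% of all windows, and this search was added after the Il1r2 sequence had been seen. A match is a match of letters in this window and no evidence of binding.

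Of the other IL-1 family ligands, receptors and binding proteins, 10 of 11 had a probe and only 3 were well above background on an array. Sigirr, a receptor that restrains IL-1 and IL-33 signalling, had 6935 in WT and 10474 in KO, a log2 difference of 0.58. Il18bp, the secreted trap of IL-18, had 349 and 310, a log2 difference of -0.18, and -0.23 by its second probe. The third was Il1rl2, described with its cluster. Il33, the IL-36 cytokines Il1f6 and Il1f9, the IL-36 receptor antagonist Il1f5, Il1f10, Il1rapl1 and Il1rapl2 were not well above background on either array, with signals up to 6.93. Neither of the 2 with a value was at least 2-fold apart. IL-33, the ligand of ST2, and the IL-36 ligands with a probe were thus not detectable at the arrays' background.

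Inflammasome and cytokine processing genes gave 12 values with a median log2 difference of 0.14. Of these 1 was at least 2-fold higher in KO, 1 at least 2-fold lower, 9 were nearer to equal and 1 was a bound smaller than 2-fold. Over all named genes with a value, 10.8% were at least 2-fold higher in KO and 5.14% at least 2-fold lower. Casp1, the caspase that matures IL-1 beta and IL-18, had 2947 in WT and 10627 in KO (3.57-fold higher). P2rx7, the ATP-gated channel that triggers the NLRP3 inflammasome, had 1841 in WT and 323 in KO (5.76-fold lower), and its second probe gave a log2 difference of -2.26 beside -2.53. The sensor Nlrp3 was equal on the arrays (47.6 and 47.4), and the adaptor Pycard had a log2 difference of 0.35. Gsdmd, encoding the pore that releases IL-1 beta, had one of -0.13, and Capn2, encoding a subunit of the calpain that cleaves the IL-1 alpha precursor, one of 0.91. The sensors Aim2 and Nlrc4 were not well above background on either array.

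Downstream of the receptors, 2 of 21 measured genes of MyD88, IRAK and TRAF6 signalling passed 2-fold toward KO, none passed it toward WT and the other 19 did not reach it. Their median log2 difference was -0.03. Over all named genes with a value, 10.8% passed 2-fold toward KO and 5.14% toward WT. Irak3, encoding the IRAK-M pseudokinase that restrains the pathway, had 31.7 in WT and 81.4 in KO by its brightest probe (2.54-fold), a second probe passed background on the KO array alone (25.9, beside 10.4 in WT) and its last one was dark. Tifa, an adaptor of TRAF6, was at least 2.22-fold higher. Neither kept the 2-fold limit after normexp, in either form. Myd88 had 6218 and 7442 (log2 difference 0.25), Irak4 0.31 and Irak1 -0.03, so the shared adaptor and its first kinases were less than 1.5-fold apart. Traf6 had a log2 difference of -0.79, and Peli1, an E3 ligase of the IRAK complex, one of -0.98 by both probes, just inside the limit on the lower side.

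Of 13 measured NF-kappaB factors and feedback targets, all 13 lay between the 2-fold limits, with a median of -0.11. At the same limits 10.8% of all named genes with a value were higher in KO and 5.14% lower. Nfkbia, the inhibitor that NF-kappaB induces itself, had a log2 difference of -0.44, Tnfaip3, encoding the A20 deubiquitinase, one of 0.28 and Nfkbiz, a co-regulator induced by IL-1, one of -0.69. The largest difference of the list was that of Nfkbid, another co-regulator, at -0.79 (1.73-fold lower in KO). Rela had one of -0.13, Nfkb2 one of 0.41 and Bcl3 one of 0.17.

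Cytokines that T cells make in response to IL-1, IL-18 or IL-33 went in both directions. Of 10 with a value, 5 passed 2-fold toward KO and 2 toward WT, where 10.8% and 5.14% of all named genes with a value did. Ifng did not reach the limit, and Il2 and Il6 had bounds smaller than it. The higher ones were the ST2-linked Th2 cytokines Il5 (at least 34.0-fold), Il4 (log2 difference 2.20) and Il13 (48.9 in WT, 147 in KO, 2.98-fold), with Il10 (16.8-fold) and Csf2 (4.11-fold). Ifng, which IL-18 induces with IL-12, had a log2 difference of 0.72 by its brighter probe and 0.73 by the other. Il17f, linked to IL-1, was dim and 2.41-fold lower (30.5 in WT, 12.8 in KO), and Tnf was 2.85-fold lower. Il17a, Il22, Il9 and Areg were not well above background on either array. In the same array 4 of the 7 mast cell and basophil markers with a value were at least 2-fold higher and Hdc was lower, as given with Il1rl1, and their part in the Th2 cytokine values was not tested.

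**Figure D4:**
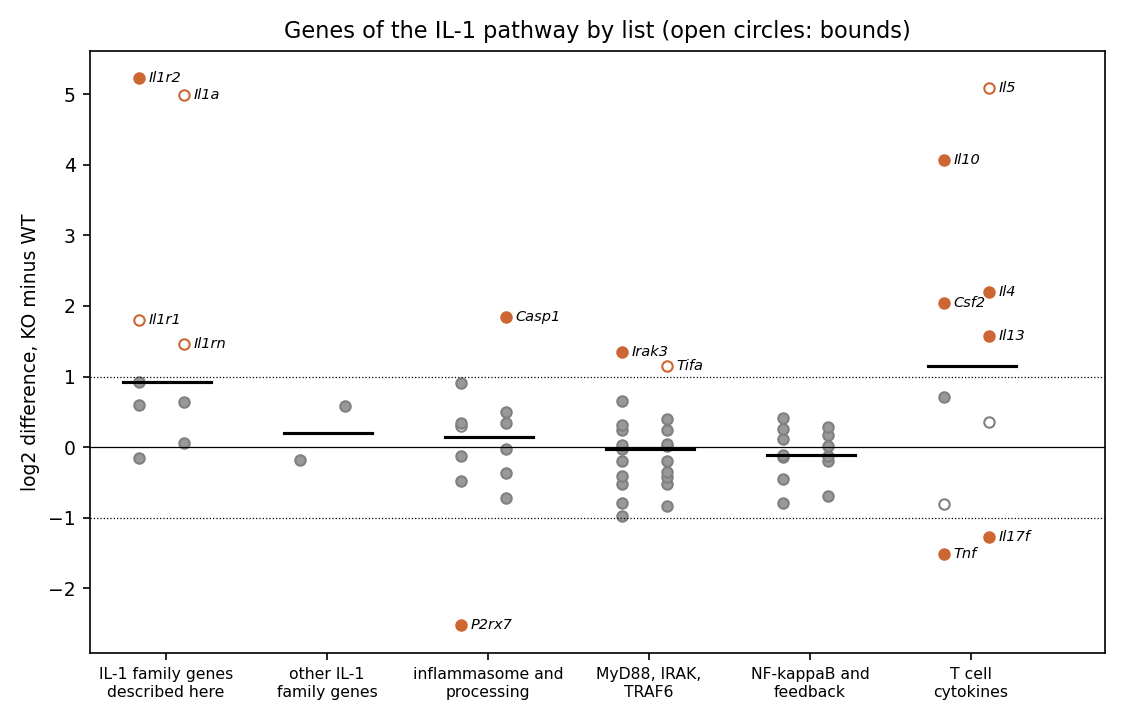
Log2 difference, KO minus WT, of each measured gene (points) in the IL-1 family and in 5 lists of the pathway, with the list median as a black line. Orange points are at least 2-fold apart and open points are bounds; the medians run from -0.11 (NF-kappaB genes) to 1.14 (T cell cytokines), and all 13 NF-kappaB genes lie inside the dotted 2-fold limits.

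Across processing settings Il1r2 stayed at least 2-fold higher in KO. Its log2 difference ran from 4.29 to 5.32 over 15 settings. Il1a was at least 2-fold higher in 14 of 15 settings and had no value with only probes well above background on both arrays, but its value ran from 1.35 to 6.32. Il1r1 and Il1rn each passed the limit in 11 of 15 settings. With the aberrant backgrounds replaced, normexp gave 0.52 and 0.41. They had no value in the other 3, which were normexp with the backgrounds as given, only probes well above background on both arrays, and only probes above the median level. Il1a, Il1r1 and Il1rn have 1 measured probe each. Averaging measured probes, taking the brightest probe whatever its flag and a common detection limit therefore could not move them. The settings they passed thus include repeats of the same value. Il18 passed the limit in 1 of 15 settings, at 1.04 after loess, and was 0.11 after normexp with the backgrounds as given. Il18r1 stayed between 0.57 and 0.82, and Il1rap was below 0 throughout, from -0.71 to -0.02. Il18rap ran from -0.18 to 0.17, so its sign depended on the setting.

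**Figure D5:**
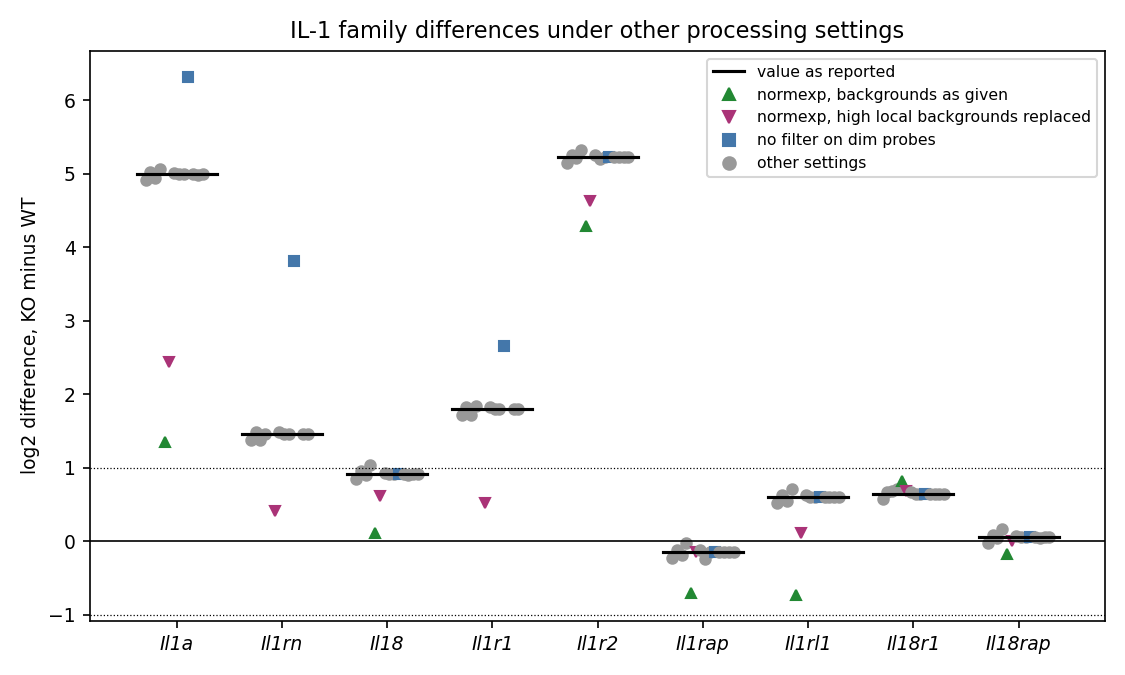
Log2 difference, KO minus WT, of the 9 measured family genes as reported (black lines) and under 14 other processing settings (points); a gene has no point where a setting gives no value. Il1r2 is at 4.29 at its lowest, whereas the genes well above background in KO only (Il1a, Il1rn and Il1r1) and the dim Il1rl1 move most with normexp, which includes an offset of 50.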

How the data were processed

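Total RNA (500 ng) of each genotype was labelled with Cy3 and read on 1 one-colour Agilent mouse array, per the labels' protocols. The deposited processed intensity of each spot comes from Feature Extraction 10.7.3.1 and is background-subtracted, detrended, linear and not scaled between arrays, per the file headers, with probe annotation on mm9. The authors' table, used only as a check, holds deposited log2 values. On each array 99.7% of them lay within 0.01 of the log2 processed signal shifted by 1 constant, with column medians of -3.97 (WT) and -3.90 (KO), so scale, centring and direction are known.

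Spots with outlier flags were left out (115 on WT, 103 on KO). No spot was saturated. Of the remaining non-control spots 59.5% (WT) and 63.5% (KO) were well above background. The main value was the log2 signal after subtracting its 75th percentile on that array, with the spots of a probe averaged. Of 41164 probes 27035 had 1 RefSeq symbol (GRCm38.p6, used for names, gene order and promoter sequences), and 14129 had none. A gene was represented by its brightest probe that passed background on an array; 13783 genes had one, and 276 of them gave no usable bound. For a bound, the dim side was taken as the dim probe's own level or the lowest level passing background there, whichever was higher.

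Normexp (offset 50, limma 3.58.1, R 4.3.3) used median spot and local background signals, as given or with local backgrounds over 200 replaced by the array's median. Other steps used Python 3.11.15. Of these, only the steps from spots to gene values and 2-fold calls were tested on simulated data, with the same noise at dim and bright signals. The rule for named genes took all 10 family members with every probe, Men1 and Bach2, the other family genes, pathway genes at least 2-fold apart, Myd88, Irak4, Traf6 and Casp1 as carriers of the signal, neighbouring genes, and cell type markers that were at least 2-fold apart or, where they define the cell, not above background. Other pathway genes under 2-fold (such as Irak1, Peli1, Pycard, Nlrp3, Gsdmd, Capn2, Nfkbia, Tnfaip3, Nfkbiz, Rela, Nfkb2, Bcl3 and Ifng), pathway genes named as dark, and markers named as equal or with small bounds were chosen after their values were seen. Members and lists were chosen with earlier results of these data known. Precision is limited by the number of arrays.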

Additional observations from a re-analysis of the deposited data

How the results depend on the processing

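The count of family genes at least 2-fold higher in KO was 4. It was 2 after normexp with the backgrounds as given, with the aberrant backgrounds replaced, with only probes above the median level, at a 4-fold limit and with every probe of a gene required (chosen after the data were seen), 1 with only probes well above background on both arrays, and 7 at a 1.5-fold limit. The remaining settings gave 4, or 5 after loess, and no setting gave a family gene at least 2-fold lower. Over all named genes the counts were 1457 higher and 694 lower. They were 601 and 1682 after normexp as given, 760 and 369 with backgrounds replaced, 2337 and 1712 at 1.5-fold, and 542 and 158 at 4-fold, and 1113 were lower with no filter on dim probes (2120 higher). The genes of the 5 pathway lists gave 8 higher and 3 lower. The higher count was 5 with backgrounds replaced and 4 at 4-fold. The lower count was 6 after normexp as given, 6 with no filter on dim probes, 10 at 1.5-fold and 1 at 4-fold. Limits and filters change which genes can pass by construction. Normexp here adds an offset of 50 to every signal, which by construction draws the ratios of dim signals toward equal. Replacing the 6 local backgrounds over 200 on the WT array moved the share of higher calls after normexp from 26.3% to 67.3%, beside 67.7% as reported. How much of the normexp shifts comes from the offset, and the cause of the remaining shifts, was not tested. No paired analysis was possible because each genotype has 1 array. Leaving out an array was not possible for the same reason. Dim signals limit Il1r1, Il1rn, Il1rl1 and Il1rap.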

Other observations

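The other family genes lie apart from the receptor cluster, and their neighbours mostly differed little. Of 30 protein-coding neighbours of the family genes, 3 on either side of each gene or cluster, 11 had a value. Among these 1 was at least 2-fold higher in KO, 1 at least 2-fold lower and 9 lay between, with a median log2 difference of 0.10. Of all named genes with a value, 10.8% were at least 2-fold higher in KO and 5.14% at least 2-fold lower. Beside Il1a, Ckap2l, which encodes a protein of the mitotic spindle, was 2.16-fold lower in KO (1448 in WT, 675 in KO), whereas Slc20a1 next to it, a phosphate transporter gene, had a log2 difference of -0.37. Beside Il1rn, Psd4 had a log2 difference of 0.33 and the family genes Il1f5, Il1f6 and Il1f10 were dark. Near Il18, Plet1 was 2.38-fold higher (140 in WT, 336 in KO), while Sdhd, a subunit of mitochondrial complex II, and Timm8b were nearly equal, at 0.18 and 0.09. Around Il1rap none of the 5 neighbours with a probe was well above background.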
